A study of Mus musculus with 2 samples.

Results

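The 10 genes described here encode the upper part of the transforming growth factor beta (TGF-β) pathway, namely the ligands Tgfb1, Tgfb2 and Tgfb3, the receptors Tgfbr1, Tgfbr2 and Tgfbr3, and the latent TGF-β binding proteins Ltbp1, Ltbp2, Ltbp3 and Ltbp4. They were taken by symbol from the 32285 genes of the deposited matrices, by a rule that uses no measured value, though the family was picked for study with earlier results of these data known. They were followed through 15 cell classes named from markers in skin of a testosterone-induced mouse model of androgenetic alopecia (AGA). All 10 were detected in both libraries.

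TGF-β ligands are secreted as inactive complexes, in which the ligand stays bound to its own propeptide and, through a disulphide bond, to a latent TGF-β binding protein (LTBP) that anchors the complex in the extracellular matrix. Integrins and other activators release the ligand, which binds the type II receptor Tgfbr2. The type II receptor then activates the type I receptor kinase Tgfbr1, and SMAD transcription factors carry the signal to the nucleus. Tgfbr3 (betaglycan) is a co-receptor that presents ligand, above all TGF-β2, to the signaling receptors. In skin the pathway is known for fibroblast activation and matrix deposition, for growth arrest of keratinocytes and for roles in both the regression and the regeneration of hair follicles.

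The control library came from vehicle-treated mice and the TP library from mice given testosterone propionate (TP) under the skin at 0.5 mg per day. All mice were male C3H/HeN, were shaved on the back at 7 weeks of age and were 9 weeks old when dorsal skin was taken, and the skin of 15 mice per group was pooled before dissociation with collagenase, red cell lysis and a density gradient. Each group is therefore 1 library, a pool in which animals cannot be separated. A group that also received a CXCL12-neutralizing antibody is not analysed here. The assay captures polyadenylated RNA in droplets, reads the 3′ end of each transcript and counts unique molecular identifiers (UMIs), so that PCR copies count once.

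Since each condition has a single library, nothing below was tested against the spread between replicates, and no p-value is given. A level is the sum of a gene's UMIs in a class, scaled to 1000000 UMIs of all genes in the same class (CPM). Differences are ratios of TP over control, followed in parentheses by exact conditional binomial 95% intervals that cover counting error only. A gene is called higher or lower where the ratio is at least 2-fold in that direction and both libraries together hold at least 50 UMIs of it. Because the assay counts transcript ends with an efficiency that differs between genes, levels are compared between cells for 1 gene and not between genes.

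After filtering, 39076 control and 18542 TP cells were kept, with 106606028 and 131659745 UMIs and medians of 2047 and 4793.5 UMIs per cell. In the matrices as deposited, 7.58% of control and 22.6% of TP barcodes exceeded the limit of 10% mitochondrial counts and were left out. The libraries had 303 cell barcodes in common. Of 31 clusters, 22 were named from marker lists with the ending "-like", and 15 named classes held at least 50 cells in each library. The unnamed clusters held 33.9% of control and 30.6% of TP cells. DPC-like cells (dermal papilla) numbered 3937 and 1338, DF-like cells (dermal fibroblast) 186 and 644, outer bulge-like cells 630 and 1595, and inner root sheath-like cells 7716 and 1070. The class names were checked against their markers, and beside most calls within a class the levels of some marker lists of other cells are given. Inner root sheath-like cells were the most numerous class in control only, and their markers, read here as a measure of free RNA, summed to 1725 CPM in control and 361 CPM in TP in the DPC-like cells. A member's level in inner root sheath-like cells is given below for reference. It can hold RNA made by those cells as well as free RNA, so it is not a floor.

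The start regions of Ltbp1, Tgfb1 and Tgfb2 are shown because Ltbp1 has the largest lead of 1 class over the next among the members in both libraries and has 2 annotated starts, and because Tgfb1 and Tgfb2 differ in where they were found in skin. Each run is the 250 bases before an annotated start in RefSeq on GRCm38.p6, written 5′ to 3′ in the direction of the gene, and capitals mark matches on either strand to 5 motifs that do not contain one another. The motifs searched were the cAMP response element TGACGTCA, the TATA motif TATAAA, the GC box GGGCGG, the AP-1 motif TGAGTCA and the E-box CACGTG.
Ltbp1, first start, chr17:75005279-75005528, plus strand: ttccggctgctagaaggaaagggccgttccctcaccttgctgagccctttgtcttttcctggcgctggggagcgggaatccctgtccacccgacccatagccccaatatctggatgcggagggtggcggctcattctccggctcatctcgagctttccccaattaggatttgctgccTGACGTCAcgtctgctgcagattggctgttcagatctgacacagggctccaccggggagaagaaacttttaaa
Ltbp1, second start, chr17:75178531-75178780, plus strand: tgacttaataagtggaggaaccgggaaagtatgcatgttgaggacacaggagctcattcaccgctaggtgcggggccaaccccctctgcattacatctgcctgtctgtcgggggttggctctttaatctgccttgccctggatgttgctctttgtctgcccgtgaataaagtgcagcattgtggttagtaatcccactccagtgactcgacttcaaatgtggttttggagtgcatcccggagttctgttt
Tgfb1, chr7:25686752-25687001, plus strand: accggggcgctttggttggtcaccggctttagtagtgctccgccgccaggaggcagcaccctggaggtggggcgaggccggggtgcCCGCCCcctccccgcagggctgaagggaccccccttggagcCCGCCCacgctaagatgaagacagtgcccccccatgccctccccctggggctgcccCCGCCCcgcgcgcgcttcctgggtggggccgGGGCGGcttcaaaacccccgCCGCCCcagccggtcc
Tgfb2, chr1:186705990-186706239, minus strand: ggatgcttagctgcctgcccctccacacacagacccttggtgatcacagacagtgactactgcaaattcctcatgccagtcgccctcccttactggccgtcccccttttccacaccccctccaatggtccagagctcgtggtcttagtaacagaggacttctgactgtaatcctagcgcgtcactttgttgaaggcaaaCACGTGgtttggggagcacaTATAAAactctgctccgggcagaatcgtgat

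The first Ltbp1 start held a cAMP response element at bases 73 to 66 before the start, a motif found in 1.55% of 32817 promoter windows of the same length, and the second start held none of the 5 motifs. Tgfb2 held a TATA motif at bases 31 to 26 (present in 12.4% of windows) and an E-box at bases 51 to 46 (6.02%). Tgfb1 held 5 GC boxes (the motif is present in 32.7% of windows) and a GC content of 75.2%, against a median of 52.4% over all windows and 53.6% in the Tgfb2 window. The AP-1 motif, present in 4.46% of windows, was found in no window of the members. Of the 10 members, 8 had an entry in the promoter table, and Tgfb3 and Tgfbr3 did not. A match is a description of the letters only. The 3′ counts do not say from which of the 2 Ltbp1 starts a transcript came. Both starts lie inside the annotated gene (chromosome 17 from 75005480 to 75392512, ENSMUSG00000001870), the first of them near its beginning.

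The first question was whether the family as a whole differed between TP and control skin. Over all cells, Tgfbr2 alone was called higher, 1 of 10 members against 8.44% of 17564 genes, and no member was called lower, against 9.96% of genes. The median log2 ratio of the members was 0.13 and that of all genes was -0.23. Tgfbr2 was at 28 CPM in control and 66.1 CPM in TP, a ratio of 2.36 (2.27 to 2.47). Tgfbr3 followed with 63.6 and 117 CPM (ratio 1.84, 1.79 to 1.89), and Tgfbr1 went the other way with 113 and 68.1 CPM (ratio 0.603, 0.586 to 0.619). The type I and type II receptors thus differed between the libraries in opposite directions.

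Among the ligands, Tgfb1 was at 20.1 and 18.1 CPM (ratio 0.897, 0.846 to 0.951), Tgfb2 at 23.7 and 25 CPM (ratio 1.06, 1 to 1.11) and Tgfb3 at 3.34 and 5.24 CPM (ratio 1.57, 1.38 to 1.79). Ltbp1 was at 138 and 156 CPM (ratio 1.13, 1.1 to 1.15), Ltbp3 at 31.3 and 20 CPM (ratio 0.638, 0.606 to 0.672) and Ltbp4 at 30.8 and 30.7 CPM (ratio 0.997, 0.951 to 1.04). Ltbp2 was counted 91 times in control and 208 times in TP (ratio 1.85, 1.44 to 2.39), so that its values in single classes rest on few UMIs.

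In sums over all cells, more cells of a type and more RNA per cell cannot be told apart, and the libraries differed in their cells: DF-like cells were 0.476% of control and 3.47% of TP cells, and inner root sheath-like cells 19.8% and 5.77%. When the cluster levels of both libraries were weighted by the control library's cluster shares, the log2 ratio of Tgfbr2 moved from 1.24 to 0.39, that of Tgfbr3 from 0.88 to 0.15 and that of Tgfbr1 from -0.73 to -0.07, and no member was then called. The same weighting moved Ltbp1 from 0.17 to 0.54. Weighted by the TP library's shares, the log2 ratio of Ltbp1 was 0.45 and that of Tgfbr2 was 0.50. The all-cell differences of the receptors were thus smaller at a fixed composition, and that of Ltbp1 was larger. Ltbp4, with a ratio of 0.997 as counted, had a ratio of 0.716 with the TP library's shares. Within classes its ratio was below 1 in 10 of 12 compared and above 1 in 2.

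**Figure D1:**
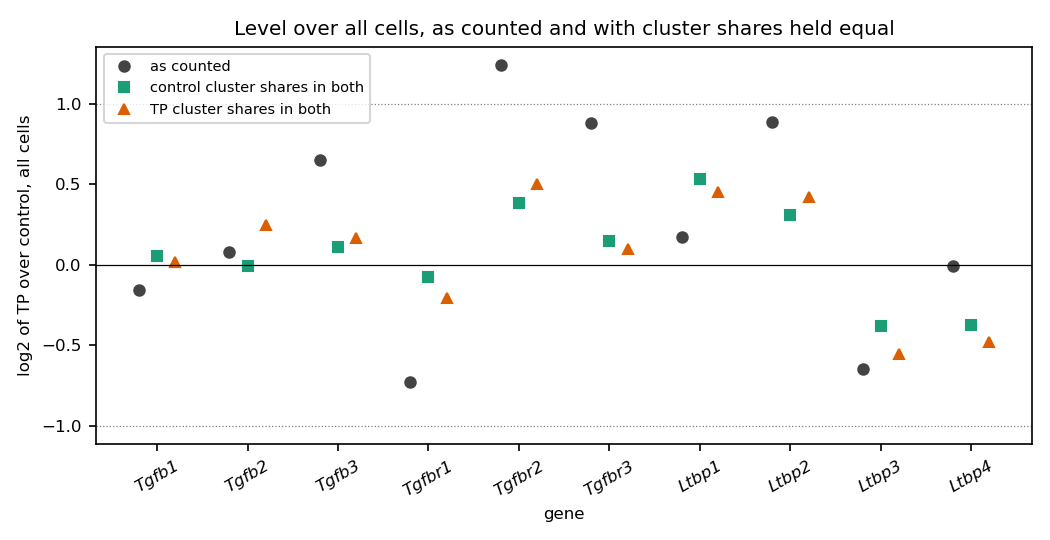
The log2 ratio of the TP over the control level (vertical axis) is plotted for the 10 members over all cells, as counted (circles) and with the cluster shares of control (squares) or TP (triangles) used for both libraries, and dotted lines mark 2-fold. Tgfbr2 lies at 1.24 as counted and at 0.39 and 0.50 with equal shares, while Ltbp1 lies at 0.17 as counted and at 0.54 and 0.45.

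The distribution of each gene's UMIs over cell classes changed between the libraries. DPC-like cells held 44.2% of all Tgfb2 UMIs in control and 24.9% in TP, and DF-like cells held 1.62% and 31.3%. For Tgfbr2, DF-like cells held 6.11% and 32.7%, and for Tgfbr3 5.59% and 35.1%. Outer bulge-like cells held 4.49% of Tgfb3 UMIs in control and 29.4% in TP. Ltbp1 kept its main source, with 78.5% and 66.3% of its UMIs in DPC-like cells. These shares depend on how many cells of each class were recovered as well as on the level per class.

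**Figure D2:**
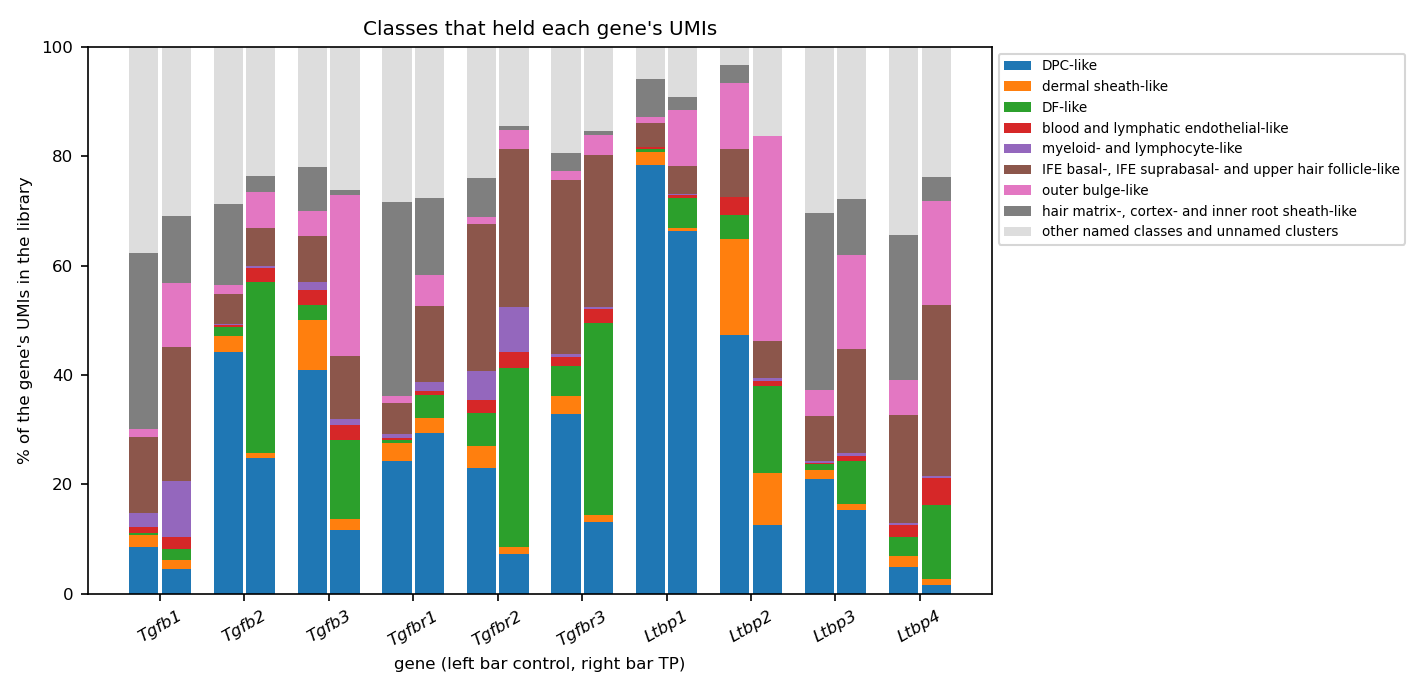
Each bar gives the percentage of a gene's UMIs that lay in each group of classes, with control left and TP right, and light grey holds other named classes and the unnamed clusters. The DF-like share of Tgfb2 is 1.62% in control and 31.3% in TP, and DPC-like cells hold 78.5% and 66.3% of the Ltbp1 UMIs.

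The second question was which cells carried each member, and whether this was alike in both libraries. The class with the highest level was the same in control and TP for 7 of the 10 members, and it differed for Tgfb1, Tgfb2 and Tgfbr2. Which members agreed depended on the processing. With a mitochondrial limit of 5% they were 5, with Tgfbr2 and without Tgfb3, Ltbp2 and Ltbp4. Tgfbr3, Ltbp1 and Ltbp3 agreed under each alternative run. The first class was separated from the second, with an interval of their ratio above 1, for 3 of 10 members in control (Tgfbr1, Tgfbr3 and Ltbp1) and for 6 of 10 in TP (Tgfb2, Tgfbr2, Tgfbr3, Ltbp1, Ltbp2 and Ltbp4). Only Tgfbr3, in DF-like cells, and Ltbp1, in DPC-like cells, had such a lead in both libraries. Within the 15 classes, 105 of the 150 pairs of a member and a class held enough UMIs to be compared. Of these, 6 were called higher in TP, against 3.32% of all gene and class pairs, and 11 were called lower, against 6.06%.

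**Figure D3:**
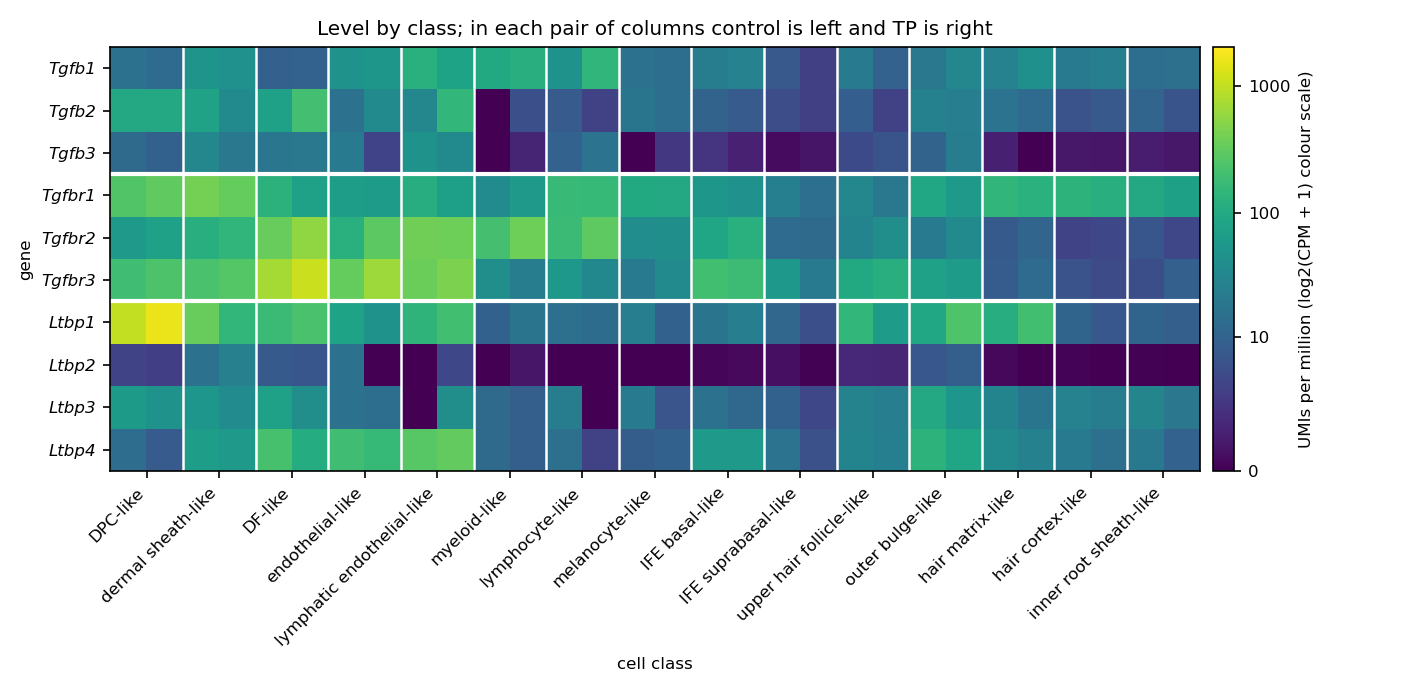
Colour gives the level on a log2(CPM + 1) scale for the 10 members (vertical axis) in the 15 classes (horizontal axis), with control left and TP right in each pair of columns, and it compares cells within a gene, not genes. Ltbp1 is brightest in DPC-like cells, Tgfbr3 in DF-like cells and Ltbp4 in lymphatic endothelial-like cells, in both libraries.

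Tgfb1 (chromosome 7, from 25687002 to 25705077, ENSMUSG00000002603), a ligand with broad roles in immune regulation and wound repair, was highest in vascular and immune classes. In control, lymphatic endothelial-like cells (122 CPM, 15 UMIs) and myeloid-like cells (101 CPM, 32 UMIs) led, and in TP lymphocyte-like cells (150 CPM, 44 UMIs) and myeloid-like cells (118 CPM, 199 UMIs) led. In both libraries the first and second class could not be separated. Keratinocyte classes lay lower, at 24.4 and 28 CPM in IFE basal-like cells (interfollicular epidermis) and 7.4 and 3.25 CPM in IFE suprabasal-like cells. DF-like cells were among the classes with the lowest Tgfb1 levels, at 9.43 CPM (5 UMIs) in control and 9.98 CPM (50 UMIs) in TP. Both lay below the inner root sheath-like levels of 14.4 and 15.4 CPM, so that free RNA was not told apart from RNA of the DF-like cells.

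In lymphocyte-like cells, Tgfb1 was at 48.8 CPM in control (25 UMIs, 288 cells) and 150 CPM in TP (44 UMIs, 141 cells), a ratio of 3.07 (1.84 to 5.24), and 5.01% of genes were called higher there. After thinning each cell to 1000 UMIs, 4.8% of control and 11.8% of TP lymphocyte-like cells had a Tgfb1 UMI (unthinned 8.33% and 19.1%, median depths 1450.5 and 1497 UMIs), against 1.66% in the inner root sheath-like cells of both libraries. Myeloid markers, all 8 of them detected in both libraries, summed to 402 CPM in control and 893 CPM in TP in these cells, with 6 of 8 higher in TP, and their part in the result was not tested. The class held its subclusters in different shares. I6, led by Gzmc and Xcl1, had 27 of 288 control and 40 of 141 TP cells, and Tgfb1 was there at 152 CPM (8 UMIs) and 243 CPM (29 UMIs), so that it gave 29 of the 44 TP UMIs. In I1, led by Cd247 and Ptprc, the levels were 49.8 CPM (11 UMIs) and 54.1 CPM (4 UMIs), in I4, led by Cd3g and Cd3e, 36.4 CPM (5 UMIs) and 142 CPM (8 UMIs), and in I3, led by Cd247 and Kcnma1, 9.87 CPM (1 UMI) and 68.3 CPM (3 UMIs). IFE suprabasal markers in the class summed to 2312 and 6068 CPM (7 of 7 higher in TP), and their part was not tested. Myeloid-like cells themselves were at 101 and 118 CPM of Tgfb1 (ratio 1.16, 0.795 to 1.74).

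Tgfb1 was called lower in TP in IFE suprabasal-like cells (7.4 and 3.25 CPM, ratio 0.438, 0.313 to 0.618) and in upper hair follicle-like cells (21.5 and 9.89 CPM, ratio 0.46, 0.326 to 0.653). In upper hair follicle-like cells 3.6% of genes were called lower, IFE suprabasal markers summed to 11860 CPM in control and 20800 CPM in TP (7 of 7 higher), upper hair follicle markers to 10640 and 15560 CPM (5 of 5 higher) and inner root sheath markers to 1890 and 510.0 CPM (0 of 7 higher), and their part in this and the other calls of the class was not tested. Both TP levels lay below that of the inner root sheath-like cells (15.4 CPM), and neither pair was called with edgeR's TMM factors or with the mean of log-normalised counts. The call in upper hair follicle-like cells was also lost in thinned cells.

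Tgfb2 (chromosome 1, from 186622787 to 186709697, ENSMUSG00000039239), a ligand known to be made by the dermal papilla, was highest in mesenchymal classes and, in TP, in lymphatic endothelial-like cells. In control, DPC-like cells (97.3 CPM), dermal sheath-like cells (78 CPM) and DF-like cells (77.3 CPM) led without separation. In TP the order was DF-like (206 CPM), lymphatic endothelial-like (153 CPM) and DPC-like cells (98 CPM), and each of these 3 neighbours was separated from the next. Myeloid-like cells of control had 0 Tgfb2 UMIs, which allows a level of up to 9.51 CPM, and those of TP had 5.32 CPM.

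In DF-like cells Tgfb2 was at 77.3 CPM in control (41 UMIs, 186 cells) and 206 CPM in TP (1031 UMIs, 644 cells), a ratio of 2.66 (1.95 to 3.73), and 4.12% of genes were called higher there. DF markers summed to 29570 and 45140 CPM in these cells (5 of 7 higher in TP) and inner root sheath markers to 1693 and 289 CPM (0 of 7 higher), and their part in the result was not tested. The thinned share of DF-like cells with a Tgfb2 UMI was 8.97% in control and 14.5% in TP (unthinned 15.1% and 41.8%, median depths 2414.5 and 6907.5 UMIs), and in inner root sheath-like cells 1.17% and 1.07%. With summed UMIs of thinned cells the ratio was 1.75, which is not called. The subclusters of the DF-like cells differed in Tgfb2 and took different shares of each library. Over both libraries the level was 306 CPM in subcluster D1, led by Col1a1 and Col1a2, and 14.2 CPM in D3, led by Sfrp4 and Ogn. D1 had 25 control and 211 TP cells, and within it Tgfb2 was at 107.5 CPM in control (13 UMIs) and 316 CPM in TP (702 UMIs). It was also higher in TP in D0 (62.6 and 209 CPM) and D2 (14.8 and 92.2 CPM), and lower in TP in D3 (25.4 and 12.6 CPM), D4 (227 and 159 CPM) and D5 (320.4 and 154 CPM), where control had 2, 4 and 7 UMIs. D0, a shallow subcluster led by Itgbl1 and Opcml, held 117 of 186 control and 149 of 644 TP cells. Without D0, an alternative chosen after seeing the data, Tgfb2 was at 88 and 205 CPM (ratio 2.33, 1.59 to 3.56).

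In lymphatic endothelial-like cells Tgfb2 was at 32.5 CPM in control (4 UMIs, 56 cells) and 153 CPM in TP (74 UMIs, 161 cells), a ratio of 4.69 (1.76 to 17.7), and 5.92% of genes were called higher there. The control value rests on 4 UMIs. Lymphatic markers were detected in full in both libraries and summed to 6239 and 13870 CPM. IFE suprabasal markers summed to 1822 and 6695 CPM (7 of 7 higher in TP), inner root sheath markers to 3270.0 and 548 CPM (0 of 7 higher), DF markers to 81.4 and 134 CPM and myeloid markers to 8.14 and 120 CPM, and their part in the result was not tested.

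Tgfb2 was called lower in TP in dermal sheath-like cells, at 78 CPM in control (77 UMIs, 359 cells) and 37 CPM in TP (28 UMIs, 147 cells), a ratio of 0.474 (0.296 to 0.739), where 6.85% of genes were called lower. DPC markers summed to 5428 CPM in control and 2276 CPM in TP in these cells, with 1 of 10 higher in TP, DF markers to 2629 and 8260 CPM, with 6 of 7 higher, and dermal sheath markers to 1822 and 3442 CPM, and their part in the result was not tested. In thinned cells the ratio was 0.829, so that the call was lost, as it was with TMM factors and the mean of log-normalised counts. In upper hair follicle-like cells Tgfb2 was at 8.8 CPM (25 UMIs) and 3.46 CPM (28 UMIs), a ratio of 0.393 (0.221 to 0.703), both below the inner root sheath-like levels of 10.8 and 6.27 CPM, and it was not called with doublet calls kept or at a clustering resolution of 2.

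In DPC-like cells Tgfb2 was nearly the same in both libraries, at 97.3 CPM (1117 UMIs) and 98 CPM (822 UMIs), with a ratio of 1.01 (0.919 to 1.1). DPC-like cells were made of clusters 8, led by the agouti gene and Vcan, and 10, led by Ndnf and Rspo4, and most of the class lay in cluster 10 in control (2244 of 3937 cells) and in cluster 8 in TP (1029 of 1338 cells). Tgfb2 was lower in TP in cluster 8 (119 and 95.5 CPM, ratio 0.8, 0.719 to 0.89) and higher in TP in cluster 10 (72.4 and 111 CPM, ratio 1.53, 1.26 to 1.86). The value over the class thus joined opposite differences in its clusters, none of them as large as 2-fold.

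Tgfb3 (chromosome 12, from 86056743 to 86079041, ENSMUSG00000021253), a ligand with a role in palate fusion, had 356 UMIs in control and 690 in TP. Among named classes its level was highest in lymphatic endothelial-like cells, at 48.8 CPM (6 UMIs) and 37.1 CPM (18 UMIs), which were not separated from dermal sheath-like cells in control (32.4 CPM) or outer bulge-like cells in TP (23.8 CPM). An unnamed cluster led by Myh11, Acta2 and Tagln, genes of smooth muscle contraction, with 64 control and 110 TP cells, was at 176 CPM (32 UMIs) and 198 CPM (109 UMIs), and it held 8.99% and 15.8% of the Tgfb3 UMIs. This cluster stayed unnamed because dermal sheath and pericyte markers scored alike in it. Its Ltbp1 level was 716 and 661 CPM and its Tgfb2 level 116 and 111 CPM.

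Tgfb3 was called higher in TP in outer bulge-like cells, keratinocytes with stem cell markers of the follicle, at 10.2 CPM in control (16 UMIs, 630 cells) and 23.8 CPM in TP (203 UMIs, 1595 cells), a ratio of 2.34 (1.4 to 4.17), where 3.28% of genes were called higher. Upper hair follicle markers in these cells summed to 1840 and 3100 CPM (5 of 5 higher in TP), IFE suprabasal markers to 2371 and 3729 CPM (7 of 7 higher) and inner root sheath markers to 2245 and 441 CPM (0 of 7 higher), and their part in the result was not tested. The thinned shares of cells with a UMI were 0.761% and 2.09% (unthinned 1.91% and 9.34%, median depths 1875.5 and 3497 UMIs), against 0.114% and 0.0975% in inner root sheath-like cells. With summed UMIs of thinned cells the ratio was 1.72, which is not called. IFE suprabasal-, hair cortex-, inner root sheath- and hair matrix-like cells were each under 1 CPM in both libraries, with 0 UMIs in hair matrix-like cells of TP, and control melanocyte- and myeloid-like cells also had 0 UMIs.

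Tgfbr1 (chromosome 4, from 47353222 to 47414926, ENSMUSG00000007613), the type I receptor kinase, was found in every class in both libraries. It was highest in dermal sheath-like cells, at 403 CPM (398 UMIs) and 327 CPM (248 UMIs), followed by DPC-like cells, at 256 CPM (2933 UMIs) and 314 CPM (2635 UMIs). The order of these 2 classes was separated in control (ratio 1.58, 1.42 to 1.75) and not in TP (1.04, 0.911 to 1.19). In the matrix-derived classes it was at 147 and 129 CPM in hair matrix-like, 136 and 121 CPM in hair cortex-like and 98.6 and 75 CPM in inner root sheath-like cells. Tgfbr2 and Tgfbr3 were also counted in these classes, where each had its lowest levels among the 15 classes.

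Tgfbr1 was called in no class, with a ratio above 1 in 2 of 13 classes compared and below 1 in 11. The interval lay above 1 in 1 class and below 1 in 8. With TMM factors the Tgfbr1 ratio was above 1 in 4 and below 1 in 9. Its level in TP relative to control was 1.23 (1.17 to 1.3) in DPC-like, 0.583 (0.451 to 0.764) in DF-like and 0.643 (0.534 to 0.779) in outer bulge-like cells. Within DPC-like cells the ratio was 1.12 (1.05 to 1.2) in cluster 8 and 1.43 (1.28 to 1.6) in cluster 10.

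Tgfbr2 (chromosome 9, from 116087695 to 116175363, ENSMUSG00000032440), the ligand-binding type II receptor, was high in DF-like, endothelial and immune classes and low in the differentiating hair classes. In TP it was 567 CPM in DF-like, 371 in lymphatic endothelial-like, 367 in myeloid-like, 300 in lymphocyte-like and 297 in endothelial-like cells, and DF-like cells were separated from the next class (1.53, 1.31 to 1.79). In control it was 343 CPM in DF-like, 382 in lymphatic endothelial-like, 209 in myeloid-like, 178 in lymphocyte-like and 124 in endothelial-like cells. Among keratinocytes, IFE basal-like cells had 85.8 and 123 CPM and IFE suprabasal-like cells 13.1 and 12.7 CPM. Hair cortex-like cells had 3.76 and 4.24 CPM, and inner root sheath-like cells 6.69 and 4.06 CPM.

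The Tgfbr2 ratio was above 1 in 12 of the 15 classes, and its interval lay above 1 in 8 of them. With TMM factors it was above 1 in 14 of 15. The largest ratio was that of endothelial-like cells, at 124 CPM in control (23 UMIs, 63 cells) and 297 CPM in TP (81 UMIs, 62 cells), a ratio of 2.39 (1.49 to 3.98), the 1 class in which it was called, where 4.55% of genes were called higher. Endothelial markers, all 7 detected, summed to 4586 and 5644 CPM, pericyte or smooth muscle markers to 950 and 458 CPM and DF markers to 210 and 80.6 CPM in these cells. DPC markers summed there to 880 and 117 CPM, inner root sheath markers to 2412 and 315 CPM and IFE suprabasal markers to 1624 and 3658 CPM (7 of 7 higher in TP). The part of all these in the result was not tested. With the mean of log-normalised counts the ratio was 1.86, which is not called. The other classes with the interval above 1 had ratios from 1.27 in DPC-like to 1.76 in myeloid-like cells, with 1.65 (1.42 to 1.93) in DF-like and 1.44 (1.31 to 1.58) in IFE basal-like cells. Myeloid-like cells also differed in make-up, since I0, led by Ccl8 and C1qa, held 16 of 120 control and 178 of 348 TP cells, and within it Tgfbr2 was at 368 CPM (20 UMIs) and 468 CPM (465 UMIs). Within DPC-like cells the Tgfbr2 ratio was 1.09 (0.961 to 1.24) in cluster 8 and 1.51 (1.19 to 1.91) in cluster 10.

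Tgfbr3 (chromosome 5, from 107106567 to 107289629, ENSMUSG00000029287), the co-receptor, was led by DF-like cells in both libraries, at 715 CPM (379 UMIs) and 1078.5 CPM (5406 UMIs). The next classes were lymphatic endothelial-like cells in control (366 CPM, ratio 1.95, 1.43 to 2.72) and endothelial-like cells in TP (656 CPM, ratio 1.64, 1.42 to 1.92). After thinning, 43.4% of control and 63.5% of TP DF-like cells had a Tgfbr3 UMI (unthinned 60.8% and 92.9%), against 0.586% and 0.877% of inner root sheath-like cells. Within DF-like cells the ratio of TP over control was 1.51 (1.36 to 1.68), and in endothelial-like cells 1.99 (1.48 to 2.71), just short of a call.

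IFE basal-like cells had the highest Tgfbr3 level of the keratinocyte classes, at 196 and 185 CPM, and held 20.8% and 17.7% of its UMIs. IFE suprabasal-like cells had 56.2 CPM (455 UMIs) and 21.8 CPM (605 UMIs), a ratio of 0.389 (0.344 to 0.44), which is called lower. Transcripts of both Tgfbr1 and Tgfbr2 were found in few single cells at a depth of 1000 UMIs: 4.14% (exact interval 1.53 to 8.79) of control and 2.28% of TP DF-like cells, 1.84% and 1.59% of DPC-like cells and 2.92% and 1.52% of dermal sheath-like cells. Lymphocyte-like cells were in the same range, at 2.62% and 2.94%. Myeloid-like cells had 0 of 110 in control, which allows up to 2.73%, and 1.74% in TP. The same count was 0.0714% in control inner root sheath-like cells and 0 of 1026 in TP, which allows up to 0.292%.

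**Figure D4:**
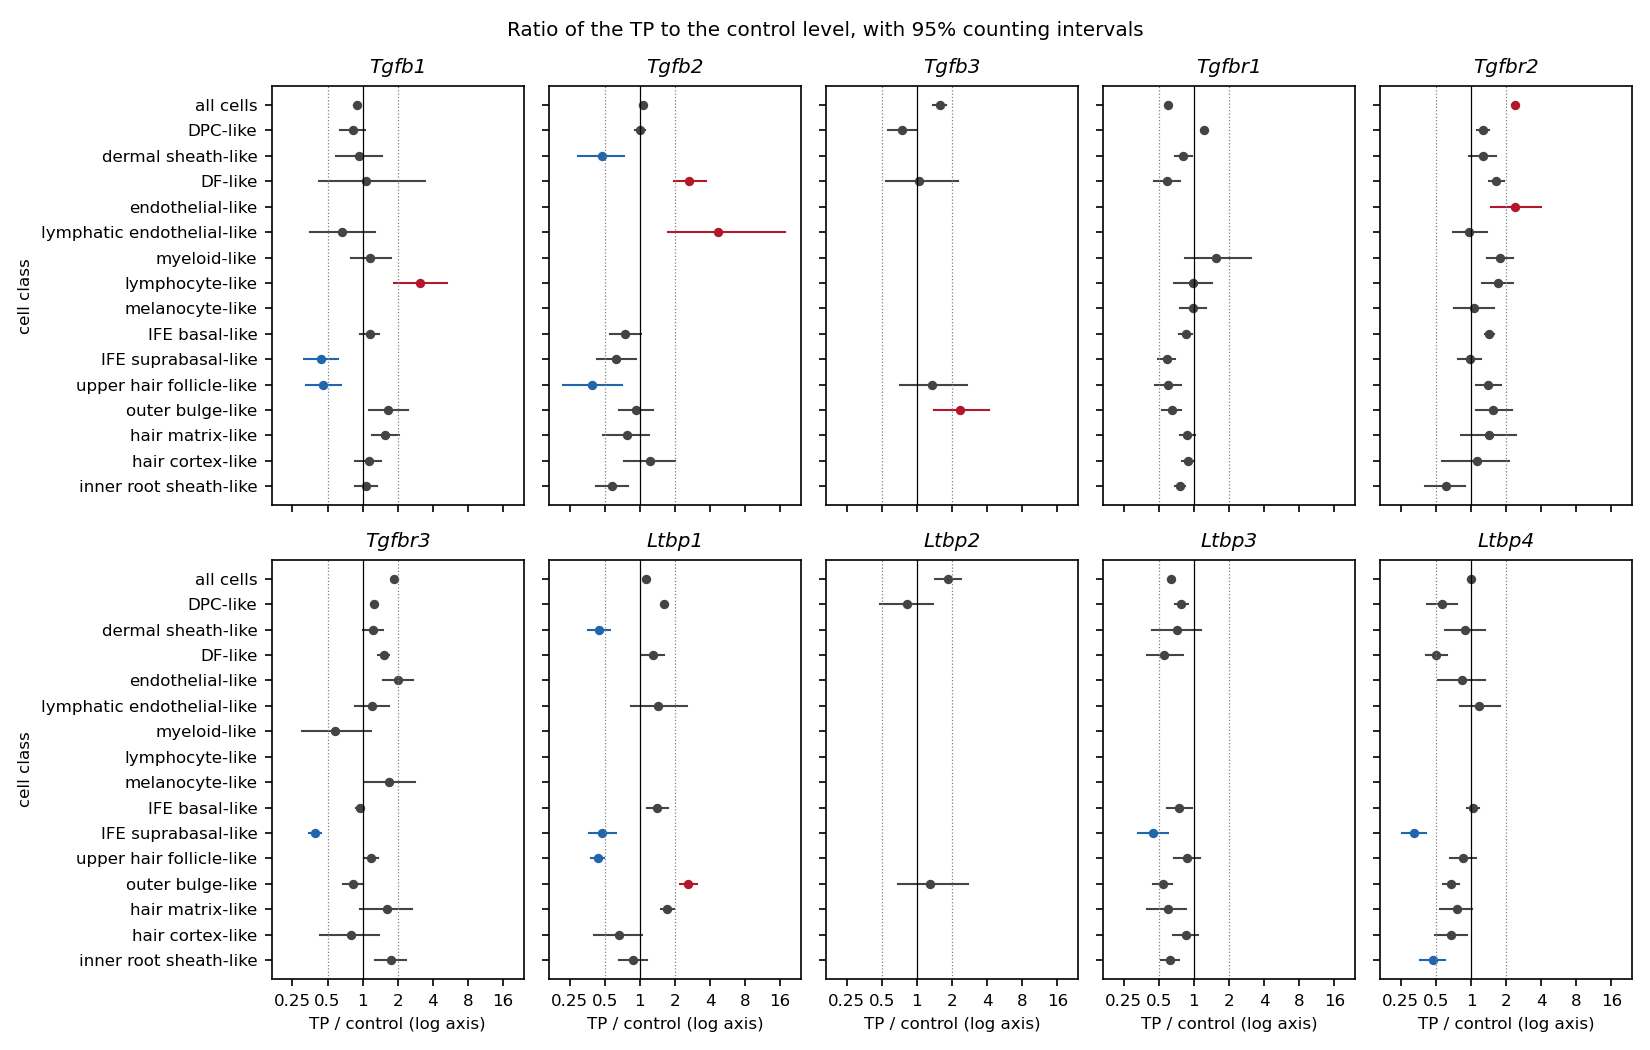
Each point is the ratio of the TP over the control level of a member (panels) in a class (vertical axis) on a log axis, with its exact 95% counting interval as a line, and pairs with fewer than 50 UMIs in both libraries together are left out. Red marks the ratios called higher (6 within classes, and Tgfbr2 over all cells) and blue the 11 called lower, of which 5 lie in IFE suprabasal-like cells.

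Ltbp1, which binds the latent complex and holds it in fibrillin-rich matrix, was led by DPC-like cells in both libraries. There it was at 1009 CPM in control (11580 UMIs) and 1623.5 CPM in TP (13622 UMIs), a ratio of 1.61 (1.57 to 1.65). The lead over the next class was 2.94-fold (2.64 to 3.28) in control, where dermal sheath-like cells followed with 343 CPM, and 6.6-fold (6.3 to 6.91) in TP, where outer bulge-like cells followed with 246 CPM. After thinning, 55.6% of control and 71.7% of TP DPC-like cells had an Ltbp1 UMI (unthinned 74.7% and 91.5%, median depths 2426 and 5183 UMIs), against 0.971% and 1.27% of inner root sheath-like cells.

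The DPC-like difference in Ltbp1 was found in both clusters of the class. In cluster 8 the gene was at 1143 and 1680 CPM (ratio 1.47, 1.43 to 1.51), and in cluster 10 at 857 and 1323 CPM (ratio 1.54, 1.46 to 1.63). The level was thus higher in TP by less than 2-fold in each, and no member was called in DPC-like cells in either direction, where 3.9% of genes were called higher and 7.5% lower. DPC markers, all 10 detected in both libraries, summed to 14370 and 13090 CPM.

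Ltbp1 was called higher in outer bulge-like cells, at 94.1 CPM in control (148 UMIs) and 246 CPM in TP (2102 UMIs), a ratio of 2.62 (2.21 to 3.11), and the thinned share of cells with a UMI was 6.46% and 19.1% (unthinned 13.7% and 42.5%). The ratio was between 2.34 and 3.66 under 11 alternative settings. DPC markers in these cells summed to 155 and 97.6 CPM (4 of 10 higher in TP) and dermal sheath markers to 204 and 82.6 CPM (1 of 6 higher). The upper hair follicle and IFE suprabasal markers given above for this class were higher in TP. The part of all these markers in the result was not tested. Outer bulge markers, all 6 detected, summed to 2105 and 2475 CPM. The same markers summed to 2412 and 2371 CPM in IFE basal-like cells, so that this sum does not set the 2 classes apart. IFE basal markers summed to 5104 and 5716 CPM in outer bulge-like cells.

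In 3 other classes Ltbp1 was called lower in TP. Upper hair follicle-like cells had 152 CPM in control (433 UMIs, 1045 cells) and 66.7 CPM in TP (540 UMIs, 1378 cells), a ratio of 0.438 (0.385 to 0.498), with DPC markers at 154 and 41.9 CPM, 0 of 10 higher in TP, whose part in the result was not tested. Dermal sheath-like cells had 343 CPM (339 UMIs) and 154 CPM (117 UMIs), a ratio of 0.45 (0.361 to 0.556), beside the DPC and DF markers given above for this class. In neither of these classes was it called in thinned cells or with the mean of log-normalised counts. IFE suprabasal-like cells had 11.2 and 5.34 CPM (ratio 0.475, 0.364 to 0.624), close to the inner root sheath-like level of 10.4 CPM in control and below that of 9.1 CPM in TP. Hair matrix-like cells, by contrast, had 114 CPM (711 UMIs) and 197 CPM (373 UMIs), a ratio of 1.72 (1.52 to 1.96), which is not called. DPC markers in these cells summed to 516 and 838 CPM (3 of 10 higher in TP) and DF markers to 491 and 1440 CPM (6 of 7 higher), and their part in the result was not tested.

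Outside the named classes, a cluster led by Gpc5 and Dkk2 (34 cells in control and 303 in TP) had 529 and 614 CPM of Ltbp1, as well as 342 and 530 CPM of Tgfbr3. In 23 control and 18 TP cells led by Pax7, a factor of muscle stem cells, it was at 407 CPM (13 UMIs) and 1224 CPM (44 UMIs). Within DF-like cells the level was 489 CPM over both libraries in subcluster D4, led by Pi16 and C3, and 475 CPM in D5, led by Col1a1 and Col1a2, against 17.4 CPM in D3. Over all DF-like cells it was 175 CPM and 227 CPM (ratio 1.3, 1.05 to 1.62).

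Ltbp2 (chromosome 12, from 84783212 to 84876558, ENSMUSG00000002020), a fibrillin-binding member that does not bind latent TGF-β, was rare. Dermal sheath-like cells had the highest level in both libraries, at 16.2 CPM (16 UMIs) and 26.4 CPM (20 UMIs). In control they were not separated from endothelial-like cells (3 UMIs), and in TP they were separated from outer bulge-like cells at 9.13 CPM (78 UMIs, ratio 2.89, 1.68 to 4.77). Only DPC-like cells (43 and 26 UMIs) and outer bulge-like cells (11 and 78 UMIs) held enough UMIs to be compared, with ratios of 0.827 (0.488 to 1.38) and 1.31 (0.691 to 2.72). Lymphocyte-like and melanocyte-like cells had 0 UMIs in both libraries.

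Ltbp3 (chromosome 19, from 5740900 to 5758536, ENSMUSG00000024940), which binds latent TGF-β and is best known from bone and teeth, was spread over epithelial and mesenchymal classes. It was highest in outer bulge-like cells, at 97.9 CPM (154 UMIs) and 53 CPM (453 UMIs), and not separated from DF-like cells in control (75.4 CPM) or DPC-like cells in TP (47.8 CPM). Its ratio was below 1 in 10 of 10 classes compared, with the interval below 1 in 7, and also in 10 of 10 with TMM factors. The medians of all genes lay between -0.26 and -0.08 on the log2 scale in these classes. The ratio was 0.542 (0.45 to 0.655) in outer bulge-like, 0.783 (0.69 to 0.886) in DPC-like and 0.555 (0.395 to 0.8) in DF-like cells, and it was called only in IFE suprabasal-like cells, at 9.5 and 4.22 CPM (0.444, 0.33 to 0.6), below the inner root sheath-like levels of 31 and 19.4 CPM.

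Ltbp4 (chromosome 7, from 27305140 to 27339720, ENSMUSG00000040488), which binds latent TGF-β and supports elastic fibre assembly, was highest in endothelial and DF-like classes, with outer bulge-like keratinocytes next. Lymphatic endothelial-like cells led, at 277 CPM (34 UMIs) and 326 CPM (158 UMIs), separated from endothelial-like cells in TP (161 CPM, ratio 2.02, 1.44 to 2.89) and not from DF-like cells in control (215 CPM, ratio 1.29, 0.85 to 1.9). Outer bulge-like cells had 133 CPM (210 UMIs) and 89.3 CPM (763 UMIs), not separated from endothelial-like cells in control (ratio of endothelial-like over outer bulge-like 1.46, 0.992 to 2.08). By share of UMIs, IFE and upper hair follicle-like cells together held 19.7% and 31.2%, and DF-like cells 3.48% and 13.4%. Hair matrix-, cortex- and inner root sheath-like cells together held 26.6% and 4.53%, and outer bulge-like cells 6.4% and 18.9%. DPC-like cells were among the lowest classes, at 14 and 7.99 CPM, below the inner root sheath-like levels of 20.9 and 9.83 CPM.

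In DF-like cells Ltbp4 was at 215 CPM in control (114 UMIs) and 108 CPM in TP (542 UMIs), a ratio of 0.503 (0.41 to 0.621), just short of a call, and without D0 at 277 and 114 CPM (0.411, 0.326 to 0.523), which is called. Subcluster D3, the one with little Tgfb2 and Ltbp1, had 447 CPM over both libraries, and it took 19 of 186 control and 68 of 644 TP cells. Within D3 Ltbp4 was at 496 CPM (39 UMIs) and 440 CPM (244 UMIs), and within D2 at 473 CPM (32 UMIs) and 107 CPM (88 UMIs). In D1, with 25 control and 211 TP cells, it was at 99.2 and 65.4 CPM, in D0 at 130 and 53.4 CPM and in D5 at 91.5 and 57.6 CPM. D4 had 0 and 9 UMIs. The part of these subcluster shares in the result was not tested. Without D0, Ltbp3 was also called lower (108 and 44 CPM, ratio 0.409, 0.282 to 0.611). These 2 calls need a subset chosen after seeing the data, for which the share of all genes called lower is not given. Over all DF-like cells that share was 8.61%. Over the whole class, Tgfb2 and Ltbp4 thus differed between TP and control DF-like cells in opposite directions. Calls lower in other classes were IFE suprabasal-like (17.2 and 5.55 CPM, ratio 0.324, 0.256 to 0.41) and inner root sheath-like cells (20.9 and 9.83 CPM, ratio 0.47, 0.365 to 0.599), where 6.09% of genes were called lower. The inner root sheath-like call was lost with TMM factors, with doublet calls kept, in thinned cells and with the mean of log-normalised counts, and IFE suprabasal markers in that class summed to 2170 and 7250 CPM, whose part was not tested.

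The class of IFE suprabasal-like cells was the cluster led by Hrnr, Flg and Flg2. An unnamed cluster led by Clca3a2 and Krt1, with 1408 control and 1817 TP cells, lay outside it. IFE suprabasal-like cells held 5 of the 11 lower calls, namely Tgfb1, Tgfbr3, Ltbp1, Ltbp3 and Ltbp4. Of 8 members compared there, these 5 were called lower, against 11.7% of genes, and none higher, against 1.93%. The levels of Tgfb1, Ltbp3 and Ltbp4 lay below those of inner root sheath-like cells in both libraries. That of Ltbp1 was close to them in control and below in TP. Of the 5, only Tgfbr3 lay above the inner root sheath-like level in both libraries, a level that can hold RNA of those cells as well as free RNA. The median log2 ratio was -1.12 over these members and -0.26 over all genes. IFE basal markers summed to 3102 CPM in control and 1584 CPM in TP in these cells, 0 of 6 higher in TP, IFE suprabasal markers to 44490 and 66340 CPM, and the median depths were 7718 and 14452.5 UMIs, and their part in the result was not tested. With TMM factors Tgfb1, Ltbp1 and Ltbp3 lost the call, with doublet calls kept these 3 and Tgfbr3 lost it, and in thinned cells Tgfbr3 and Ltbp4 lost it. With the mean of log-normalised counts Tgfb1, Tgfbr3, Ltbp1 and Ltbp3 lost it, and Ltbp1 also lost it at clustering resolutions of 0.5 and 2. In IFE basal-like cells no member was called (1.54% of genes higher and 3.51% lower), and the median log2 ratio of 8 members was -0.02.

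No member was called higher or lower in myeloid-like (8.1% of genes higher and 8.02% lower), melanocyte-like (4.3% and 8.89%), hair cortex-like (2.49% and 2.84%) or hair matrix-like cells (1.72% and 4.27%). None was called lower in DF-like (8.61% of genes), lymphocyte-like (6.88%), endothelial-like (3.45%), lymphatic endothelial-like (2.87%) or outer bulge-like cells (3.76%). None was called higher in dermal sheath-like (4.09%), inner root sheath-like (3.55%) or upper hair follicle-like cells (2.11%). In most classes the number of members is so small that 1 call more or less moves their share past that of all genes.

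The rest of the pathway was read from a list of 41 genes in 4 groups, which was also drawn up with earlier results known. Over all cells 10 of 41 were called higher and 2 lower, against 8.44% and 9.96% of all genes, and their median log2 ratio was 0.19. Among 12 genes of storage and activation of the latent complex, 5 were called higher: the activator Thbs1 (22.4 and 55.2 CPM), the integrin subunits Itgb6 (8.85 and 19.7 CPM) and Itgb8 (5.3 and 11.7 CPM), and the milieu molecules Lrrc32 (0.628 and 1.66 CPM) and Nrros (0.535 and 2.18 CPM), which tether latent TGF-β on cell surfaces. Of 6 co-receptors and related receptors, Acvrl1 was called higher (1.57 and 3.21 CPM) and Tgfbr3l lower (1.59 and 0.729 CPM). Of 11 SMADs and regulators, the inhibitory Smad6 was called lower (42 and 15.9 CPM, ratio 0.378, 0.359 to 0.399), and Smad7, another inhibitory SMAD, was at 48.8 and 25.4 CPM (ratio 0.52, 0.497 to 0.543). Of 12 target genes, 4 were called higher, among them Fn1 (20 and 65.7 CPM), Postn (41.7 and 96.1 CPM) and Id1 (57.7 and 118 CPM). With cluster shares held at those of control, or at those of TP, 1 pathway gene, Id1, was called higher, and the Smad6 call was lost in both cases. Id1 is counted here as a target by its place in the list, and whether its level followed TGF-β or another signal was not tested.

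Within DPC-like cells, where no receptor was called, 4 of 12 targets were called higher, against 3.9% of genes there, among them Ccn1 (168 and 684 CPM, ratio 4.08, 3.87 to 4.3), Tgfbi (11.1 and 28.2 CPM, ratio 2.55, 2.05 to 3.19) and Bhlhe40 (16.1 and 36.7 CPM, ratio 2.28, 1.89 to 2.75). The fibrillin gene Fbn1, whose product anchors LTBPs in the matrix, was called lower there, where 7.5% of genes were (686 and 315 CPM, ratio 0.459, 0.439 to 0.48). These values are over the whole class, most of which lay in cluster 10 in control and in cluster 8 in TP, and were not computed per cluster. IFE suprabasal markers in DPC-like cells summed to 1739 and 2977 CPM (7 of 7 higher in TP) and inner root sheath markers to 1725 and 361 CPM, and their part in these results was not tested. In dermal sheath-like cells, where 4.09% of genes were called higher, Postn, which encodes periostin, was at 178 and 692 CPM (3.88, 3.26 to 4.63), beside DF markers at 2629 and 8260 CPM in these cells, whose part in the result was not tested. In DF-like cells, where 4.12% of genes were called higher, 2 of 11 targets were, beside the shares of D0 and the marker levels given above for this class. Ccn1 was at 123 and 326 CPM (ratio 2.66, 2.07 to 3.46) and Bhlhe40 at 15.1 and 36.7 CPM (ratio 2.43, 1.21 to 5.72). In myeloid-like cells Fn1, which encodes fibronectin, was at 38 and 211 CPM (ratio 5.54, 3.13 to 10.8) and Tgfbi at 200 and 429 CPM (ratio 2.15, 1.66 to 2.83), where 8.1% of genes were called higher and 8.02% lower. Of 5 targets compared there, 3 were called higher, with Bhlhe40 the other one, and Ccn1 was called lower, at 91.9 CPM (29 UMIs) and 36.6 CPM (62 UMIs, ratio 0.398, 0.253 to 0.642). These cells had the different shares of I0 given above and DF markers at 120.5 and 288 CPM (6 of 7 higher in TP), and the part of either in the result was not tested. Smad6 was called lower in DF-like, dermal sheath-like, IFE basal-like and outer bulge-like cells, with ratios from 0.156 to 0.484. Targets were not called higher in every class. In outer bulge-like cells 0 of 11 were (3.28% of genes), in IFE basal-like cells 1 of 10 (1.54%), and in either endothelial class 0 of 2. Of all pathway genes compared, 3 of 30 were called higher and 9 lower in IFE suprabasal-like cells (1.93% and 11.7% of genes). In melanocyte-like cells 1 of 22 was called higher and 6 lower (4.3% and 8.89%). Many of these targets respond to other signals as well.

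Across the 15 classes of both libraries, 30 points that share libraries and depths, the members differed in which genes they resembled, by Pearson's r of log2(CPM + 10) over 12226 genes. The genes most like Tgfb2 were Fstl1 (0.91), Fxyd1 (0.888) and Cul7 (0.886), those most like Tgfbr3 were Cavin3 (0.931), Il6st (0.929) and Nbl1 (0.928), and those most like Ltbp1 were Rbms3 (0.858), Pappa (0.849) and Cacna2d3 (0.844). Ltbp2 was most like the contractile genes Acta2 (0.898) and Tagln (0.839) and the matricellular gene Ccn2 (0.833). Its highest levels, in dermal sheath-like cells, rest on 16 control and 20 TP UMIs, so that its r values rest on few counts. Tgfb1 was most like Picalm, Pacsin2 and Ptpn18, Tgfb3 like Ntn1, Zbtb4 and Flot1, Tgfbr1 like Purg, Cby1 and Fam20a, Tgfbr2 like Glud1, S100a13 and Lncpint, Ltbp3 like Zdhhc1, Fzd2 and Boc, and Ltbp4 like Mid1, Col18a1 and Dock9, with r from 0.815 to 0.928. Among the members themselves, Tgfb2 and Ltbp1 were the most alike (0.788), followed by Tgfbr2 and Tgfbr3 (0.744), and Tgfb1 and Ltbp3 the least (-0.361). These correlations are a description of 30 class values and carry no test.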

How the data were processed

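Skin cells of 1 control and 1 TP library were profiled with a droplet 3′ kit. The deposited matrices hold raw UMI counts per gene and cell barcode, which the authors made with Cell Ranger 8.0.1 on the mm10 mouse reference, and whether introns or strand were counted is not given in the sources used here. The members and gene lists were chosen with earlier results of these data known.

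Barcodes entered the analysis with 200 to 8000 genes detected and a mitochondrial share of up to 10%, and the 7.5% of cells with the most artificial doublets among their neighbours were removed (25% artificial cells, 30 components, nearest 1%), by a procedure rewritten after DoubletFinder. Clusters were made with Seurat 5.3.0 (SeuratObject 5.2.0, R 4.3.3) from 2000 variable genes at resolution 1, leaving out the members and the pathway list. Marker scores named the clusters, and the limits of this rule were partly set after the clusters were seen. Of the listed markers, Krt85 was not used here. Counts were summed per class and library with Python 3.11.15, numpy 2.4.6, scipy 1.17.1, pandas 2.3.3 and scikit-learn 1.9.0, figures were drawn with matplotlib 3.10.9, and edgeR 4.0.16 gave TMM factors only. Levels have exact Poisson intervals, shares exact Clopper-Pearson intervals and ratios exact conditional binomial intervals, at 95% and for counting error only. A level or share of 0 was given a limit of 3 counts. For shares of cells, each cell was thinned to 1000 UMIs, and 5362 control and 876 TP cells below that depth were omitted. The scripts were tested on simulated data.

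Genes named in the text are the 10 members, the 41 genes of the pathway list and, for each member, the 3 genes with the highest Pearson correlation of log2(CPM + 10) over classes among genes with at least 500 UMIs. Genes that lead a cluster are named to identify it. The values of 1 gene of the pathway list are not reported here. The alternatives were TMM factors, minima of 1 and 200 UMIs, doublet calls kept, cells with at least 1000 UMIs, a mitochondrial limit of 5%, thinned cells, the mean of log-normalised counts on the natural log scale (the mean ln measure), resolutions 0.5 and 2, subtraction of the inner root sheath-like level and fixed cluster shares. DF-like cells without subcluster D0 were added after seeing the data. Class names are rebuilt here and may differ from those of the study.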

Additional observations from a re-analysis of the deposited data

Results flagged for a closer look

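Each of 3 members was called in opposite directions in 2 classes of the same libraries, and whether the classes differ was not tested, since each condition has 1 library. Tgfb1 had a ratio of TP over control of 3.07 in lymphocyte-like cells and 0.438 in IFE suprabasal-like cells. Tgfb2 had a ratio of 4.69 in lymphatic endothelial-like cells and 0.393 in upper hair follicle-like cells. Ltbp1 had a ratio of 2.62 in outer bulge-like cells and 0.438 in upper hair follicle-like cells. The Tgfb2 value in lymphatic endothelial-like cells rests on 4 control UMIs. In upper hair follicle-like cells both Tgfb2 levels lay below those of inner root sheath-like cells, and the call was lost with doublet calls kept and at a clustering resolution of 2. In IFE suprabasal-like cells both Tgfb1 levels lay below those of inner root sheath-like cells, and the call was lost with TMM factors, with doublet calls kept and with the mean ln measure. The Ltbp1 call in upper hair follicle-like cells was lost in thinned cells and with the mean ln measure.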

How the results depend on the processing

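For the members, no direction of a called ratio was reversed under the alternatives run. Of their uncalled log2 ratios over all cells, 4 changed sign: Tgfb1 from -0.16 to 0.084 with TMM factors, 0.39 with the mean ln measure, and 0.052 and 0.016 with the cluster shares of control and of TP, Tgfb2 from 0.079 to -0.025 with doublet calls kept and -0.0062 with control shares, Ltbp1 from 0.17 to -0.031 with a mitochondrial limit of 5%, and Ltbp4 from -0.0049 to 0.24 with TMM factors, 0.29 in thinned cells and 0.54 with the mean ln measure. The 6 pairs of a member and a class called higher became 3 with a minimum of 200 UMIs, 2 in thinned cells, 11 with the mean ln measure and 12 after subtraction of the inner root sheath-like level. The 11 pairs called lower became 5 with TMM factors, 19 with a minimum of 1 UMI, 6 with a minimum of 200 UMIs, 7 with doublet calls kept, 4 in thinned cells, 2 with the mean ln measure and 6 after the subtraction. Without subcluster D0, a setting added after seeing the data, they were 13. Over all cells, the 1 member called higher became 3 with TMM factors, 3 in thinned cells, 4 with the mean ln measure and 0 with the cluster shares of control or of TP. Of the pathway list, the 10 genes called higher became 6 with a mitochondrial limit of 5% and 1 with the shares of either library, and the 2 called lower became 1 with TMM factors, 1 in thinned cells, 1 with TP shares, and 0 with the mean ln measure or control shares. The causes were not tested. TMM factors moved all log2 ratios over all cells by 0.24, and by 0.38 in DF-like cells. The ratios past 2-fold under each alternative run for them were Ltbp1 in outer bulge-like (2.34 to 3.66), Tgfb1 in lymphocyte-like (2.23 to 3.91) and Tgfb2 in lymphatic endothelial-like cells (3.64 to 6.73). The last of these has 8 alternatives against 11, with no value in thinned cells, cells with at least 1000 UMIs or the mitochondrial limit of 5%. Minima of 1 and 200 UMIs are among the alternatives and cannot move a ratio. With the minimum of 200 UMIs, Tgfb1 in lymphocyte-like cells (25 and 44 UMIs) and Tgfb2 in lymphatic endothelial-like cells (4 and 74 UMIs) were no longer called. Leaving out a replicate was not possible with 1 library per group. No paired analysis was possible because each group has 1 library and no test was made. Depth limits the rare members and the small classes, with 63 and 62 endothelial-like cells and 91 and 208 UMIs of Ltbp2.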
